A study of Homo sapiens with 4 samples.

Results

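The 41 genes described here are 24 genes of glycolysis and its transport and regulation, and 17 other genes known as targets of the hypoxia-inducible factors (HIF). They were taken from a written list of names and not by a cutoff on measured values. The list was, however, chosen with earlier results of these data known. All 41 were found among the 46660 gene identifiers of the table. RNA was sequenced from U87MG and U251MG, established lines of human glioblastoma grown in DMEM with fetal bovine serum. Each of these lines gave 1 control library, from cells infected with empty pGreen lentivirus and titled shControl, and 1 library from cells infected with lentivirus carrying short hairpin RNA against *FLI1* (shFLI1), an ETS family transcription factor. Both arms went through lentiviral infection and puromycin selection, and each library was made from a mixed population of stable cells, not from single clones. The methods describe 2 hairpins against *FLI1* and do not say how they were divided over the libraries.

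Glycolysis splits glucose into pyruvate, with a small yield of ATP, and lactate dehydrogenase turns pyruvate into lactate that leaves the cell through monocarboxylate transporters. HIF is a dimer of an oxygen-regulated alpha subunit and *ARNT*. When oxygen is plentiful, the EGLN prolyl hydroxylases mark the alpha subunit for degradation through *VHL*, and when oxygen is low the dimer binds short DNA motifs near genes of glycolysis, blood vessel growth, pH control and mitophagy. Glioblastomas are known for high glucose uptake and for zones of hypoxia with expression of *VEGFA*, the main growth factor for blood vessels.

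*FLI1* itself was checked first. Its level in CPM, the read count per 1000000 counts of the library after TMM scaling, was 9.34 in the U87MG control and 2.34 in U87MG shFLI1, and 12.1 in the U251MG control and 3.71 in U251MG shFLI1. On the log2 scale it fell by 1.95 in U87MG and by 1.68 in U251MG, and the quasi-likelihood test of edgeR on all 4 libraries gave an adjusted p of 0.00698. Total counts ran from 12229780 to 28891055 per library, and the shFLI1 library was the deeper one in both cell lines, the part of which in the results was not tested. The 41 genes took between 1.56% and 1.97% of the counts. Of 9 glial and glioma markers, 6 or 7 had at least 10 counts in each library, with a summed level of 5655 to 9190 CPM. Most of this sum came from *VIM* (2986 to 7005 CPM) and *CD44* (1044 to 1741 CPM), so it mainly reflects these genes and not the whole list. *OLIG2* had at most 2 counts, *AQP4* at most 7 and *S100B* at most 11. *GFAP*, the glial filament gene, was higher in shFLI1 cells of both cell lines, at 634 and 1587 CPM in U87MG and 20.4 and 93.8 CPM in U251MG, with an adjusted p of 0.00783 by edgeR. *SLC1A3*, a glial glutamate transporter, was at 24.0 and 20.1 CPM in U87MG and at 7.57 and 2.64 CPM in U251MG, with an adjusted p of 0.185 by edgeR. The 8 markers of leukocytes, endothelium and epithelium that the table holds summed to between 2.64 and 8.03 CPM. Their highest sum was in the U87MG control, where *CDH5*, an endothelial cadherin, was at 4.45 CPM and *PTPRC*, *PECAM1* and *CDH1* had 0 counts. The part of these markers in the results was not tested.

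Since every arm is a single library, no replicates stand behind the differences within a cell line and they carry no p-value. A gene was called within a cell line when its log2 fold change passed 2-fold and the 95% Clopper-Pearson interval of its reads left out no change. Genes entered this rule with 10 counts or more in either library. These intervals cover counting error only, since PCR reads are not independent molecules. In bulk RNA, fewer cells that express a gene and less RNA per cell cannot be told apart.

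The motif that HIF binds has the core letters ACGTG or GCGTG, and these were searched on both strands of 300-base RefSeq promoter windows (GRCh38.p14), 250 bases before and 50 after 1 annotated transcript start per gene. The palindrome CACGTG holds ACGTG on both strands and counts on each. Windows were found for 35 of the 41 genes, and in 11 of these the start used lies inside the gene, 6333 bases in for *PFKFB4*, so that other starts of the gene were not searched. Either core was present in 25 windows (71.4%), against 48.4% of all 27305 windows. ACGTG was present in 42.9% of the members' windows and 21.6% of all windows, and GCGTG in 45.7% and 36.3%. Either core was in 15 of 22 windows of glycolysis genes and in 10 of 13 of the other HIF targets. A match is a description of letters and not a bound site. Upstream stretches of 4 genes are shown 5′ to 3′. *ADM* and *CA9* carry calls in the comparisons that follow. *PFKFB4* was not called in any of them, but passed the edgeR test of the knockdown over the 4 libraries. *BNIP3* has the most matches of any HIF target with a window and was not called in either cell line after knockdown. Capitals mark each core on either strand, CACGT and CACGC being the cores read from the opposite strand. The stretches leave out untranslated regions annotated by GENCODE, and that of *CA9*, where such a region of another transcript covers the core, is limited to 30 bases.
*PFKFB4*, chr3:48556891-48556982, minus strand: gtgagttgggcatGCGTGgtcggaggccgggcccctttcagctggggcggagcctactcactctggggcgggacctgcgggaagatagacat
*ADM*, chr11:10304823-10305072, plus strand: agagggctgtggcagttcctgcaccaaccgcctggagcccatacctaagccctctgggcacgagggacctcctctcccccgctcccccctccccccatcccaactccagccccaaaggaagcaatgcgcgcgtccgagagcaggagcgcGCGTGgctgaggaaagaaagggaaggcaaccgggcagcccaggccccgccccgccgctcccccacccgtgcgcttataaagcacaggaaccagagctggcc
*CA9*, chr9:35673898-35673927, plus strand: tcgtttccaatgCACGTacagcccgtacac
*BNIP3*, chr10:131981968-131982173, minus strand: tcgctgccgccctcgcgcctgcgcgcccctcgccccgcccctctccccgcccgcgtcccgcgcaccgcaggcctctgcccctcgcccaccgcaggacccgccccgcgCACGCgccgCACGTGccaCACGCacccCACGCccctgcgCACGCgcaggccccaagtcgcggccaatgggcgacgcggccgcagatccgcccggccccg
*PFKFB4* and *ADM* each held 1 GCGTG core in the upstream 250 bases, *CA9* held 1 ACGTG core, and *BNIP3* held 6 matches, of which 2 were ACGTG and 4 were GCGTG. *EGLN3*, which was called in U87MG, had no match of these letters in its window. Of the other genes called after knockdown, *ANGPTL4* held 1 ACGTG core, and *VEGFA* and *NDRG1* had no window to search.

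The first question was which of these genes differed between shFLI1 and control cells within each cell line. In U87MG, 4 of 40 tested members were called, *CA9* higher and *VEGFA*, *NDRG1* and *EGLN3* lower, where 11.4% of all 17355 genes tested were called, 7.21% higher and 4.19% lower. In U251MG, 2 of 40 were called, *ADM* and *ANGPTL4*, both lower, where 8.17% of 18222 genes were called, 4.17% higher and 4% lower. Over both directions, the counts were near or under these shares of all genes. The lower calls alone, 3 of 40 in U87MG and 2 of 40 in U251MG, were above the shares of all genes called lower. The shares also depend on read depth. When the minimum was raised from 10 to 100 counts, 555 of 11380 genes were called in U87MG and 400 of 12129 in U251MG. Of at most 40 members, 4 then stayed called in U87MG and 1 in U251MG. All 6 calls at the minimum of 10 counts were among the other HIF targets, and 0 of 24 glycolysis genes were called in either cell line. This contrast between the lists was not tested and was not taken at like read depth. No member was called in both cell lines, where 1.43% of the 16384 genes tested in both were called lower in each and 0.8% higher in each. With a limit of 1.5-fold, 8 members passed in U87MG, 1 higher and 7 lower, where 20.3% of all genes did, 11.9% higher and 8.44% lower. In U251MG 5 passed it, 2 higher and 3 lower, where 15.4% of all genes did, 8.16% higher and 7.26% lower.

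**Figure D1:**
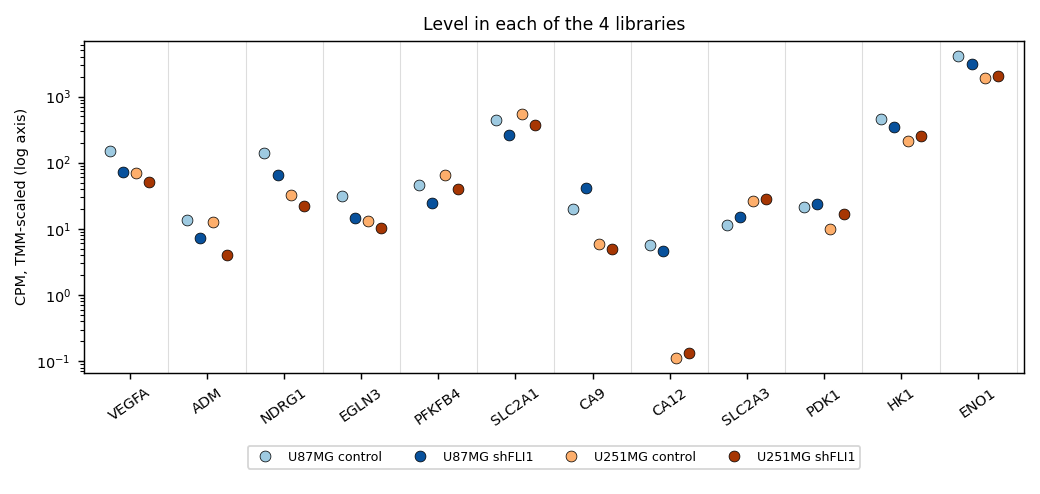
Level of 12 members in each of the 4 libraries, in TMM-scaled CPM on a log axis, with 1 point per library and no error bar because each arm has 1 library. *VEGFA*, *ADM*, *NDRG1*, *EGLN3*, *PFKFB4* and *SLC2A1* are lower in the shFLI1 library than in the control of the same cell line, and *CA12* lies at 0.112 and 0.134 CPM in U251MG against 5.68 and 4.68 CPM in U87MG.

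Among the secreted factors, *VEGFA* (chr6:43770211-43786487, RefSeq GRCh38.p14) had 149 CPM in the U87MG control and 72.5 CPM in U87MG shFLI1, and 70.5 CPM in the U251MG control and 50.2 CPM in U251MG shFLI1. The control was the higher library in both cell lines, and the U87MG shFLI1 level lay beside that of the U251MG control. The log2 fold change was -1.04 (95% interval -1.14 to -0.94) in U87MG and -0.49 (-0.60 to -0.38) in U251MG. With scaling to total counts the U87MG value was -0.88, short of 2-fold. The table splits *VEGFA* counts over 16 RNAs, and the shares of these varied widely between libraries, so only the gene sum is given.

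*ADM* (chr11:10305073-10307397) encodes adrenomedullin, a peptide that widens blood vessels. Its level was 13.7 CPM in the U87MG control, 7.24 CPM in U87MG shFLI1, 12.6 CPM in the U251MG control and 4.07 CPM in U251MG shFLI1. The controls of the cell lines were close to each other and both shFLI1 libraries lay below them. The log2 fold change was -0.91 (-1.25 to -0.60) in U87MG, which is not a call, and -1.61 (-1.96 to -1.31) in U251MG. *ANGPTL4*, a secreted regulator of lipoprotein lipase, had 8 and 6 counts in U87MG, too few to be tested, and 19 and 10 counts in U251MG. Its call in U251MG, with a log2 fold change of -1.43 and an interval from -2.94 to -0.50, rests on these few reads.

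*CA9* and *CA12* encode carbonic anhydrases at the cell surface, which help to control pH outside the cell. *CA9* (chr9:35673928-35681159) had 20.0 CPM in the U87MG control and 41.9 CPM in U87MG shFLI1, and 5.89 and 4.91 CPM in the control and shFLI1 libraries of U251MG. It was the one member called higher after knockdown, by 1.06 (0.86 to 1.28) on the log2 scale in U87MG. In U251MG its value was -0.26, with an interval from -0.63 to 0.11 that holds 0. *CA12* had 65 counts in the U87MG control, 104 in U87MG shFLI1, 2 in the U251MG control and 4 in U251MG shFLI1. In U87MG the level was 5.68 CPM in the control and 4.68 CPM in shFLI1 cells (log2 fold change -0.27, interval -0.74 to 0.19). The authors' FPKM for *CA12* went the other way, 1.14 in the control and 2.21 in shFLI1, and the cause of this was not tested.

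*NDRG1*, a stress-response gene, had 141 CPM in the U87MG control, 66.0 CPM in U87MG shFLI1, 33.0 CPM in the U251MG control and 22.3 CPM in U251MG shFLI1. The order of the 4 libraries was that of *VEGFA*. The log2 fold change was -1.10 (-1.20 to -0.997) in U87MG and -0.56 (-0.73 to -0.40) in U251MG. The oxygen sensor *EGLN3* had 31.7 and 14.7 CPM in the control and shFLI1 libraries of U87MG, and 12.96 and 10.5 CPM in those of U251MG. Its log2 fold change was -1.11 (-1.33 to -0.89) in U87MG and -0.31 (-0.56 to -0.06) in U251MG. Scaling to total counts gave -0.94 for *NDRG1* and -0.95 for *EGLN3* in U87MG, both short of 2-fold, which leaves *CA9* (1.22) as the one call in that cell line. The other sensor, *EGLN1*, the main hydroxylase of HIF in most cells, was at -0.00 in U87MG and 0.33 in U251MG.

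The remaining 9 HIF targets were not called in either knockdown. *BNIP3* and *BNIP3L*, receptors that direct mitochondria into autophagy, had log2 fold changes of -0.02 and 0.10 in U87MG and of 0.27 and 0.73 in U251MG. For the collagen prolyl hydroxylases *P4HA1* and *P4HA2* and the disulfide oxidase *ERO1A*, values lay between -0.31 and 0.18 in U87MG and between -0.08 and 0.18 in U251MG. *KDM3A*, a histone demethylase, was at 0.09 in both cell lines, and *MXI1*, which opposes MYC, was at 0.17 and 0.23. *HILPDA*, a lipid droplet protein, was at 0.22 in U87MG and -0.38 in U251MG. *ANKRD37* had few reads and intervals from -0.67 to 1.02 and from -0.77 to 0.43.

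The glycolysis genes spanned a wide range of levels. By the authors' FPKM, which is per length, *GAPDH* was the highest of the members in each library (4296 to 4965), with *ENO1* (1235 to 2539) and *PKM* (1079 to 1623) next, and *ALDOC* was the lowest of the glycolysis genes (0.24 to 0.66). *LDHA* stood at 13.8 to 17.7 FPKM, but 2 of its 5 curated mRNAs were not analysed here and 49.8% of its counts were on repeated copies of rows, so its sum is not a full gene level. *GAPDH*, *ENO1*, *PKM*, *PGAM1*, *TPI1* and *LDHB* have processed pseudogenes, and their estimated counts can be shared with these copies. Repeated rows also held 49.3% of the counts of *SLC16A1* and 12.4% of those of *GPI*.

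The median log2 fold change of the 24 glycolysis genes was -0.25 in U87MG and 0.08 in U251MG, where the medians of all genes tested were 0.06 and 0.04. The other HIF targets tested, 16 genes in each cell line, had medians of 0.01 and -0.12. In U87MG, 19 of 24 glycolysis genes were below 0, and in U251MG 10 of 24 were. Total-count scaling moved the U87MG median of all genes from 0.06 to 0.22, and that of glycolysis from -0.25 to -0.09, and the glycolysis median was below that of all genes under both scalings. Past 1.5-fold, *PFKFB4* and *ADM* were the members lower in both cell lines, where 3.02% of the 16384 genes tested in both lines were, and no member was higher in both, where 2.47% of genes were. Of 39 members tested in both lines, 14 were below 0 in both and 9 above 0 in both, where 28% and 35.5% of all genes were.

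**Figure D2:**
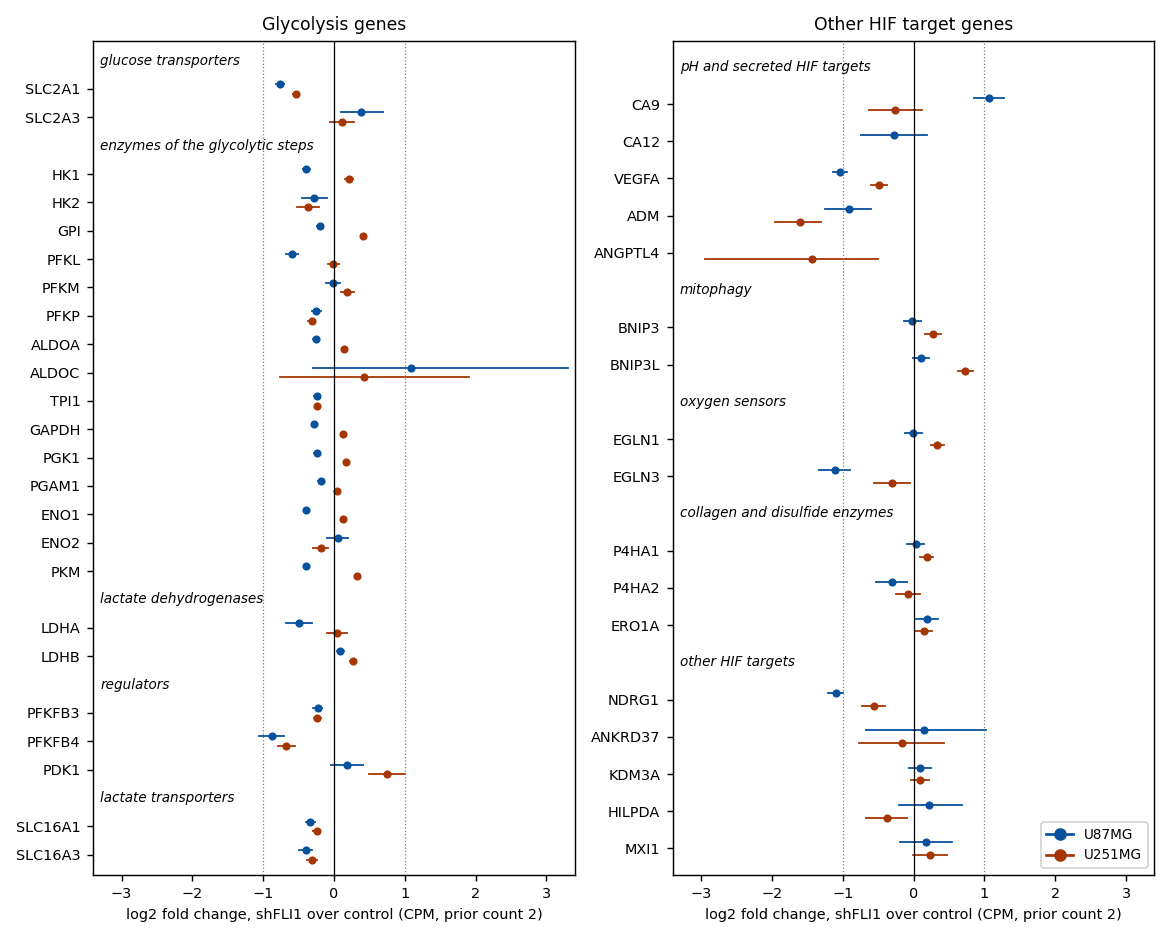
Log2 fold change of shFLI1 over control for each member, by role, in U87MG (blue) and U251MG (red), with bars for 95% Clopper-Pearson intervals of the reads, which cover counting error only; dotted lines mark 2-fold. *ANGPTL4* in U87MG and *CA12* in U251MG had fewer than 10 counts in both libraries and are not drawn, and no glycolysis gene with an interval off 0 has its point past a dotted line.

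*SLC2A1* (GLUT1) and *SLC2A3* (GLUT3) encode glucose transporters, of which only the RNA was measured here. *SLC2A1* had 446 CPM in the U87MG control, 262 CPM in U87MG shFLI1, 537 CPM in the U251MG control and 370 CPM in U251MG shFLI1. Both controls were above both shFLI1 libraries, with log2 fold changes of -0.77 (-0.82 to -0.71) and -0.54 (-0.57 to -0.50), neither past 2-fold. *SLC2A3* was at 0.39 in U87MG and 0.11 in U251MG.

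Among the 15 genes of the glycolytic steps, from the hexokinases to pyruvate kinase, log2 fold changes ran from -0.59 for *PFKL*, the liver-type phosphofructokinase, to 1.09 for *ALDOC* in U87MG, where 13 of the 15 were below 0. The *ALDOC* value rests on 4 and 19 counts and its interval, -0.30 to 3.31, holds 0. In U251MG they ran from -0.37 for *HK2* to 0.42 for *ALDOC*, with *GPI* also at 0.42, and 10 of the 15 were above 0. *TPI1*, which interconverts the triose phosphates, was at -0.25 and -0.24, and *PFKP*, the platelet-type phosphofructokinase, at -0.25 and -0.31. *HK1*, the hexokinase found in most cells, had 450 and 343 CPM in the control and shFLI1 libraries of U87MG and 215 and 249 CPM in those of U251MG. *ENO1*, the main enolase of growing cells, had 4128 and 3146 CPM in U87MG and 1909 and 2080 CPM in U251MG. The shFLI1 library of each of these genes was thus below its control in U87MG and above it in U251MG, by less than 2-fold in both.

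*PKM* makes the splice forms PKM1 and PKM2, the latter typical of growing and tumour cells. PKM2 took 94.7% of *PKM* counts in the U87MG control, 92.8% in U87MG shFLI1, 95.3% in the U251MG control and 94.3% in U251MG shFLI1. PKM1 took 3.88% (95% Wilson interval 3.69 to 4.07) and 5.61% (5.43 to 5.80) in the control and shFLI1 libraries of U87MG. In U251MG it took 3.07% (2.91 to 3.25) and 4.24% (4.10 to 4.38). The PKM1 share was higher in the shFLI1 library of both cell lines, by more than the counting error of each share. The splice forms share most of their exons, so the split rests on the counting tool's assignment of reads.

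The regulators act on the rate of glycolysis and on the fate of pyruvate. *PFKFB4* (chr3:48517684-48563136), one of the enzymes that set the level of fructose 2,6-bisphosphate, had 45.5 CPM in the U87MG control, 24.7 CPM in U87MG shFLI1, 64.7 CPM in the U251MG control and 40.6 CPM in U251MG shFLI1. Both shFLI1 libraries lay below both controls, with log2 fold changes of -0.88 (-1.06 to -0.71) and -0.67 (-0.79 to -0.56). *PFKFB3*, from the same family, was at -0.23 and -0.24. *PDK1*, a kinase that keeps pyruvate out of the mitochondrial citrate cycle, had 21.0 and 23.8 CPM in U87MG and 9.93 and 16.7 CPM in U251MG, which is 0.18 (-0.04 to 0.40) and 0.74 (0.50 to 1.01) on the log2 scale. The lactate transporters *SLC16A1* and *SLC16A3* were at -0.33 and -0.40 in U87MG and at -0.25 and -0.31 in U251MG.

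The next question was which members differed over both cell lines together. In the quasi-likelihood test of edgeR on all 4 libraries the cell line was a block, the cell lines served as replicates of the knockdown, and 1 residual degree of freedom was left. At an adjusted p below 0.05, 4 of 41 members passed, all lower, where 3.06% of 16649 genes passed, 0.919% higher and 2.14% lower. *PFKFB4* fell by 0.79 (log2, adjusted p 0.0267), *ADM* fell by 1.29 (0.0272), *NDRG1* fell by 0.86 (0.0330) and *VEGFA* fell by 0.78 (0.0447), each lower in 2 of 2 cell lines. Of these, 1 is a glycolysis gene and 3 are other HIF targets. *SLC2A1*, at -0.67, had an adjusted p of 0.0800 and *EGLN3*, at -0.73, had 0.134. At an unadjusted p below 0.05, 10 members passed, 4 of 24 glycolysis genes (*PFKFB4*, *SLC2A1*, *SLC16A3* and *HK2*, all with values below 0) and 6 of 17 other HIF targets, of which *BNIP3L*, at 0.40, was the one above 0. Of all 16649 genes, 2751 (16.5%) passed at that unadjusted p. The 4 members did not pass with scaling to total counts (adjusted p 0.0676 to 0.0905) or without the block (1.00), and the range of adjusted p over all alternatives was 0.000412 to 1.00 for *PFKFB4*, 6.86e-06 to 1.00 for *ADM*, 4.59e-05 to 1.00 for *NDRG1* and 0.000183 to 1.00 for *VEGFA*.

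The other genes of these pathways were taken from written lists, and their calls stand beside 11.4% of all genes called in U87MG and 8.17% in U251MG. In the HIF system of subunits, hydroxylases and *VHL* partners, 1 of 15 tested genes was called in U87MG, *ARNT2* higher with 25 and 274 counts, and 0 of 15 in U251MG. *HIF1A*, the best known alpha subunit, was at 0.24 in both cell lines, with levels of 270 and 319 CPM in U87MG and 283 and 334 CPM in U251MG. Of 24 further hypoxia genes, *RORA* and *VLDLR* were called higher (1.69 and 1.21) and *DDIT4* and *PPP1R3C* lower (-1.45 and -1.16) in U87MG, and *STC2* lower (-1.16) in U251MG. *DDIT4* is an inhibitor of mTORC1 signalling and *PPP1R3C* a glycogen-targeting phosphatase subunit, while *VLDLR* is a lipoprotein receptor. In the pentose phosphate pathway, 0 of 7 genes were called in either cell line, with medians of -0.44 in U87MG and 0.07 in U251MG. For pyruvate entry into mitochondria, 0 of 13 genes were called in U87MG and 1 in U251MG, *PDK3*, another pyruvate dehydrogenase kinase, which was higher (1.26). Of other isoforms of the glycolytic enzymes, 1 of 7 was called in U87MG, the muscle enolase *ENO3*, lower on 28 and 21 counts, and 0 of 6 in U251MG. The genes named in these lists were chosen after their values were seen. None of these 5 lists had a gene called alike in both lines or passing the test over the 4 libraries, in which edgeR gave 3, 7, 1, 1 and 1 genes at an unadjusted p below 0.05 for the lists in this order, where 16.5% of all 16649 genes were.

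The last question was how the cell lines differed in these genes. Between the control libraries, 9 of 40 tested members were called, where 15.1% of 16391 genes were called, 9.72% higher and 5.39% lower in U251MG. *SLC2A3* was higher in U251MG, and *HK1*, *ENO1*, *PDK1*, *CA9*, *CA12*, *VEGFA*, *NDRG1* and *EGLN3* were lower. Between the shFLI1 libraries, 3 of 41 were called, *CA9*, *CA12* and *NDRG1*, all lower in U251MG, where 18.5% of 18901 genes were called, 10% higher and 8.52% lower. With a limit of 1.5-fold, 14 members passed between the controls, 3 higher and 11 lower, where 27.7% of all genes did, 17.5% higher and 10.3% lower. Between the shFLI1 libraries 8 passed it, 3 higher and 5 lower, where 31.4% of all genes did, 17.3% higher and 14.1% lower. *VEGFA*, *NDRG1* and *EGLN3* were also the calls lower in U87MG after knockdown, and that comparison shares the U87MG control library with the one between the controls.

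*CA12* showed the widest gap. Its log2 difference, U251MG over U87MG, was -4.78 (-8.74 to -3.75) between the controls and -4.36 (-7.03 to -3.73) between the shFLI1 libraries, on 2 and 4 counts in U251MG. *CA9* was at -1.75 (-2.11 to -1.42) between the controls and at -3.07 (-3.35 to -2.84) between the shFLI1 libraries. *NDRG1* was at -2.09 (-2.24 to -1.96) and -1.56 (-1.70 to -1.43). All 3 genes had higher levels in both U87MG libraries than in either U251MG library. *SLC2A3*, a glucose transporter with high affinity, had 11.5 and 15.1 CPM in the U87MG libraries and 26.5 and 28.6 CPM in those of U251MG, and its log2 difference was 1.19 (0.92 to 1.49) between the controls and 0.92 (0.74 to 1.11) between the shFLI1 libraries. For *HK1* the values were -1.06 and -0.46, for *ENO1* -1.11 and -0.60, for *PDK1* -1.08 and -0.51, for *VEGFA* -1.08 and -0.53 and for *EGLN3* -1.28 and -0.48, each past 2-fold between the controls only.

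**Figure D3:**
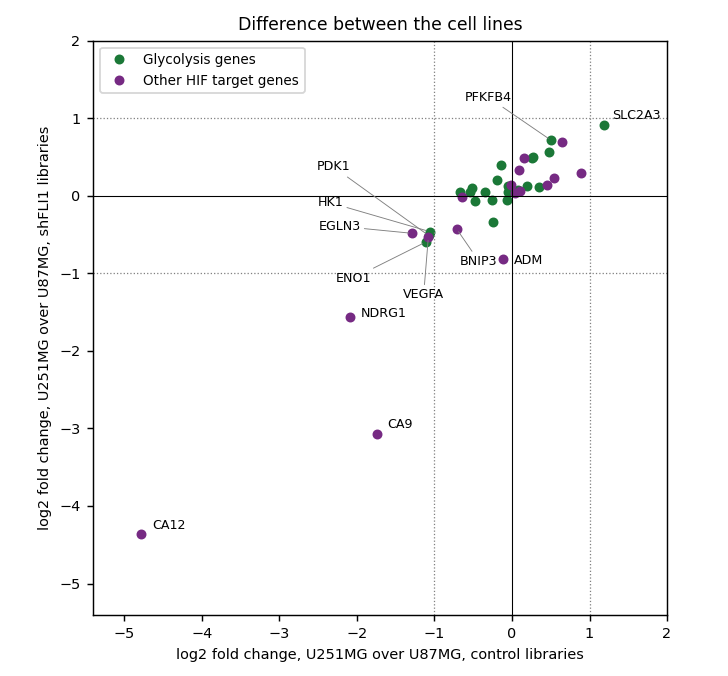
Log2 fold change of U251MG over U87MG for each member between the control libraries (x axis) and between the shFLI1 libraries (y axis); dotted lines mark 2-fold, and each point is 1 gene from 1 library per arm. *CA12*, *CA9* and *NDRG1* lie past 2-fold on both axes, toward U87MG, and *SLC2A3* at 1.19 and 0.92 lies farthest toward U251MG on both.

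Tested over the 4 libraries with the condition as a term, 11 of 41 members differed between the cell lines at an adjusted p below 0.05 by edgeR, where 18.6% of 16649 genes did, 10.4% higher and 8.25% lower in U251MG. *SLC2A3* (log2 difference 0.98, adjusted p 0.00569) and *PFKFB4* (0.54, 0.0344) were higher in U251MG. *CA12* (-5.34, 0.000236), *CA9* (-2.54, 0.000818), *NDRG1* (-1.90, 0.000213) and *VEGFA* (-0.88, 0.00850) were lower, as were *EGLN3*, *ENO1*, *PDK1*, *HK1* and *BNIP3*, at -0.96 to -0.64 with adjusted p from 0.0173 to 0.0296. Each of the 11 genes had its direction in 2 of 2 pairs of libraries. Without the condition term, *CA9* and *CA12* were the members that passed. *EPAS1*, which encodes HIF-2 alpha and was the one gene of the HIF system lower past 2-fold in U251MG in both pairs, had 97.4 and 49.5 CPM in the control and shFLI1 libraries of U87MG and 17.3 and 15.6 CPM in those of U251MG, with an adjusted p of 0.000326 by edgeR. *EPAS1* and the genes named next were picked after their values were seen. Of the 15 genes of the HIF system tested between the controls, 7 were above 0 and 8 below 0 in U251MG over U87MG. *ARNT2* was called higher there (2.18 CPM in U87MG and 16.8 CPM in U251MG), and *EPAS1* was called lower. In the edgeR test of the cell line, *HIF1AN* was higher (0.52, adjusted p 0.0296) and *EGLN2* lower (-0.51, 0.0304).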

How the data were processed

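RNA-seq of 4 libraries was analysed, 1 per arm and cell line, grouped by the sample labels; nothing pairs or replicates libraries within an arm. The authors trimmed adapters, dropped reads of low quality, aligned the rest to GRCh38 (GRCh38.p13 in the submitters' processing notes) with HISAT2, and computed FPKM with StringTie; DESeq2 was used for their gene calls. The labels and the paper name different mRNA library kits. The deposited estimated counts per RNA are not normalized, and the tool behind them is not given in the sources used here. The deposited FPKM are the authors' values. A further 10 value columns (TPM and means) were not used.

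Estimated counts of linear RNAs were summed by gene identifier and rounded. Estimated counts can be split wrongly between near-identical genes and isoforms. Fits were made with edgeR 4.0.16 in R 4.3.3, with DESeq2 1.42.0 as an alternative, and tables with Python 3.11.15. TMM factors came from the 4 libraries, the prior count was 2, and 95% Clopper-Pearson intervals used effective library sizes. The quasi-likelihood tests kept genes by filterByExpr, computed TMM on these, and adjusted p by Benjamini-Hochberg over all of them. With 1 library per arm, the knockdown test takes its spread from how the knockdown change differs between cell lines. The cell line test takes it from how the line difference varies between the control and shFLI1 libraries. In both tests edgeR moderates this spread toward a trend over all genes kept, so it is partly borrowed from other genes. Neither test measures spread between replicate cultures. The fits were tested on simulated data. No genome-wide mitochondrial share was computed, since the table lists 0 such genes.

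The members and lists were chosen with earlier results of these data known. Values of each library are given for members called in any comparison or passing the edgeR test of the knockdown, and the others by range. *SLC2A1* met neither rule, and its values are given as well. Genes of the other lists are named when called alike in both cell lines or past the shared test. Names beyond this are ends of a range, near relatives of a called gene, or said in place to be chosen from their values. Alternatives were other scalings, filters, prior counts, thresholds, designs, DESeq2, FPKM with 1 or 0.1 added, and the most abundant RNA per gene.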

Additional observations from a re-analysis of the deposited data

Results flagged for a closer look

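For 8 of the 39 members tested in both cell lines, the log2 fold change after knockdown was below 0 in U87MG and above 0 in U251MG. Both counting intervals were off 0, and all 8 are genes of the glycolytic steps. Of the 16384 genes tested in both cell lines, 639 (3.9%) did the same and 555 (3.39%) the reverse. These shares include genes with as few as 10 counts in a library. The 8 genes had from 3840 counts (*HK1*, U251MG control) to 146401 counts (*GAPDH*, U251MG shFLI1). Intervals narrow with more reads, so small changes meet this rule more easily in such genes. Genes of like depth were not compared. The difference, U251MG minus U87MG, was 0.72 for *PKM*, 0.62 for *GPI*, 0.60 for *HK1*, 0.52 for *ENO1*, 0.41 for *PGK1*, 0.40 for *ALDOA*, 0.40 for *GAPDH* and 0.23 for *PGAM1*. The difference was not tested, since 1 library per arm leaves no residual degrees of freedom for it. *PKM* was at -0.39 in U87MG and 0.32 in U251MG, and *PGAM1* was at -0.19 and 0.04. The median of all genes tested in U251MG was also 0.04. With scaling to total counts, the signs were the same for 8 of 8 genes, and *PGAM1* and *GPI* came to -0.03 and -0.04 in U87MG. Only the signs were compared there, and not whether the intervals stayed off 0. *GAPDH*, *ENO1*, *PKM* and *PGAM1* have processed pseudogenes that can share their reads.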

How the results depend on the processing

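Leaving out a library leaves no comparison within its cell line and no residual degrees of freedom in the tests over the 4 libraries, so it was not run. The labels carry no replicate numbers; the cell line is the block in the test of the knockdown. Of 1127 values of single members under alternatives, 284 left the counting interval of the reported value and 54 took the other sign, none of these being a called value. Calls numbered 4 in U87MG, and 1 with scaling to total counts, 8 at 1.5-fold and 2 with FPKM plus 1. They numbered 2 in U251MG, and 1 with at least 100 counts, 5 at 1.5-fold and 1 with FPKM plus 1. Between the controls they numbered 9, and 14 at 1.5-fold and 5 with FPKM plus 1; between the shFLI1 libraries 3, and 8 at 1.5-fold. The knockdown test over the 4 libraries passed 4 members, and 5 by DESeq2 with the block. It passed 0 with scaling to total counts and 0 without the cell line block (edgeR, 3 at an unadjusted p below 0.05). With TMM factors from all genes, an alternative chosen after seeing the data, it passed 2. The cell line test passed 11 members, and 2 without the condition term. Over all genes, the knockdown test passed 509, but 1303 with a minimum of 1 count. It passed 405 by DESeq2 with the block, and 0 by edgeR without the block (725 at an unadjusted p below 0.05). The cell line test passed 3100, but 1813 with DESeq2 and 531 without the condition term. The glycolysis median in U87MG was -0.25, and -0.093 with scaling to total counts, -0.10 with FPKM plus 1 and -0.10 with FPKM plus 0.1. That of the other HIF targets in U87MG was 0.01, and 0.17, 0.21 and 0.24 in the same order. Between the shFLI1 libraries, the glycolysis median of 0.06 became 0.018 with DESeq2 size factors, and the glycolysis median minus that of the other HIF targets, 0.03, became 0.17 with the most abundant RNA of each gene. The causes were not tested. In U87MG, calls over all genes were 1252 higher and 727 lower, and 1709 and 571 with scaling to total counts. Depth limits *ANGPTL4*, *ALDOC*, *ANKRD37* and, in U251MG, *CA12*.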
